A study of Mus musculus with 21 samples.

Results

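Satellite cells are the resident stem cells of skeletal muscle, and they lie between the muscle fiber and its basement membrane. The transcription factor PAX7 marks them, and the myogenic regulatory factors MYF5, MYOD1, MYOG (myogenin) and MYF6 (also called MRF4) bind DNA as partners of E proteins and direct satellite cells into muscle differentiation. MEF2 factors act with them on muscle gene promoters, and mature fibers keep some of these factors active after development. The transcripts described here are those of 10 genes, Pax7, Myf5, Myod1, Myog, Myf6, Cdh15, Megf10, Chodl, Mef2a and Mef2c, chosen by gene symbol from the 40853 genes in the deposited count table. All 10 had counts in every library.

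The gastrocnemius (medial belly) of 21 female C57BL/6NJ mice was the source of the RNA, which was sequenced as poly(A) libraries, each from 1 mouse, for 7 mice in each group. Inactive mice were kept in standard housing for 6 weeks. Active mice ran on a treadmill on 5 days per week for 6 weeks, in sessions of up to 40 min in which a warm-up came before running at about 70% of maximal speed, and Activity Reduction mice trained in this way for 4 weeks and then stopped for 2 weeks. Training began at 10 weeks of age, and mice of every group, Inactive included, ran a maximal test 48 to 72 h before collection and were fasted for 5 to 6 h. The comparisons ask what regular treadmill activity changes in these transcripts, and what 2 weeks without it changes.

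Total counts ranged from 38482455 to 59785132 per library, and the highest Active total lay below the lowest Inactive total. Transcripts of 24 liver genes summed to between 847 and 2512 CPM (counts scaled to library size) in 8 libraries and to between 190 and 387 CPM in the other 13. The 8 libraries, which carry the 8 lowest mouse numbers, were 5 Active, 2 Activity Reduction and 1 Inactive. For Myod1, Cdh15, Pax7, Myog, Megf10 and Mef2c, differences in at least 1 comparison are also given within this division. Of 9 markers of the muscle fiber, 8 had median levels of 497 CPM or more, whereas Mylpf, which encodes the fast regulatory light chain, had a median of 2.77 CPM. The annotation used for counting is not given in the sources used here, so the Mylpf value is uncertain as a measure of its expression. The 8 satellite cell markers, 5 of them among the 10 genes, summed to between 118 and 147 CPM. Inactive mice had 129 to 141, Active mice 118 to 146 and Activity Reduction mice 125 to 147 CPM. Itga7 gave 81.0 to 104 CPM of this sum, whereas Pax7 and Myf5 had medians of 2.66 and 1.57 CPM. The ranges of the groups thus mostly describe Itga7. In RNA of a whole muscle belly, a change in the number of satellite cells and a change in RNA per cell cannot be told apart.

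The 250 bases before the annotated transcription start are printed for Myod1, Myog and Myf6, because Myod1 had the largest difference between groups, Myog varied most between mice and Myf6 was the most abundant of the 4 myogenic regulatory factors. They were read from GRCm39, the build of the alignments, 5′ to 3′ on the strand of the gene, at chr7:46025620-46025869 (plus strand), chr1:134217457-134217706 (plus strand) and chr10:107330657-107330906 (minus strand). Capitals mark the E-box CANNTG, which myogenic regulatory factors bind, and the MEF3 motif TCAGGTTTC, known from muscle gene promoters. They also mark the MEF2 consensus YTAWWWWTAR, where Y is C or T, W is A or T and R is A or G. All were searched on both strands.
Myod1: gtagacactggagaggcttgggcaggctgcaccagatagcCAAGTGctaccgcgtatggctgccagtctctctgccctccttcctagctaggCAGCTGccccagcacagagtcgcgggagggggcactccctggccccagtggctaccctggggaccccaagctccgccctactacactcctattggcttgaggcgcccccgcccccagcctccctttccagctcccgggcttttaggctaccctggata
Myog: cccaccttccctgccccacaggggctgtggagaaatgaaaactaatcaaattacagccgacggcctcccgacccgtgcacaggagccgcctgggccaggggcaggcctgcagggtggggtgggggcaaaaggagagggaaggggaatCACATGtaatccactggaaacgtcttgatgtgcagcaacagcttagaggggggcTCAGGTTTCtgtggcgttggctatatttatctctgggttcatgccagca
Myf6: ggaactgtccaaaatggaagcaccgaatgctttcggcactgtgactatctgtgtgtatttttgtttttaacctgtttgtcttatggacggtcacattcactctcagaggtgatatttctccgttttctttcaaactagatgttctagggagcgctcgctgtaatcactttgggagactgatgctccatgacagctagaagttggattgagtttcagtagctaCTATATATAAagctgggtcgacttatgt

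Myod1 has 2 E-boxes, 210 and 158 bases before the start, and Myog has 1 E-box at 103 bases and 1 MEF3 motif at 49 bases. In the Myog window, the letters ctatatttat differ from the MEF2 consensus only in the last base and were not marked. An E-box is common, with at least 1 in 64.8% and at least 2 in 30.2% of 21770 windows of 250 bases before protein-coding genes. The MEF3 motif was found in 0.482% of these windows. The MEF2 consensus, found in 2.79% of windows, lies 28 bases before the start of Myf6, where it overlaps the letters TATAAA, and 53 bases before the start of Cdh15. Chodl has 3 E-boxes and Pax7 has 1 in the same window, and no E-box was found in the windows of Myf5, Myf6, Cdh15, Megf10, Mef2a and Mef2c. These matches are letters in a window and were not tested as binding sites.

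On the same build, to which the reads were aligned, Pax7 lies on chromosome 4 from 139464373 to 139560839 and Myog on chromosome 1 from 134217707 to 134220287. Myf5 (107318769 to 107321995) and Myf6 (107328712 to 107330656) are neighbors on the minus strand of chromosome 10. Myod1 (46025870 to 46028526) and Mef2a (66880911 to 67022606) lie on chromosome 7, and Mef2c lies on chromosome 13 from 83652064 to 83815555. Cdh15 lies on chromosome 8 from 123574705 to 123596048, Megf10 on chromosome 18 from 57266162 to 57430693 and Chodl on chromosome 16 from 78727732 to 78748624. All 10 are annotated as protein coding, and the counts are of reads on their exons. In GENCODE M39, 6.97% of the exon length of Mef2a overlaps Lysmd4 and 1.45% of that of Myog overlaps Gm32221, both on the opposite strand. The strand setting of the counting is not given in the sources used here, so these parts of the counts are uncertain. Apart from the overlap of Mef2a with Lysmd4, no near-identical copy (95% identity over at least 100 bp) of a member transcript was found among the other annotated transcripts.

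Levels of the 10 transcripts spanned a wide range when normalized counts (counts divided by DESeq2's size factors) were divided by exon length. Myf6, the myogenic regulatory factor of mature fibers, had the highest level, 2435 ± 207 normalized counts per kb (mean ± SD, n = 21 libraries), which was above 97.6% of the 14948 tested genes with a known exon length. Mef2c followed with 1928 ± 143 per kb and Mef2a with 504 ± 27.9 per kb. Myod1 had 244 ± 53.5 per kb and Cdh15, which encodes the adhesion protein M-cadherin, had 226 ± 22.3 per kb. Myog had 142 ± 35.7 per kb and Chodl, which encodes the membrane lectin chondrolectin, had 63.0 ± 7.53 per kb. The lowest levels were those of Myf5 (38.6 ± 7.05 per kb), Pax7 (23.4 ± 4.24 per kb) and Megf10 (7.69 ± 1.69 per kb), whose product is a transmembrane receptor of satellite cells, and Megf10 was above 15.7% of tested genes.

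In this order, the level per kb of each gene was above that of its lower neighbor in all 21 libraries, except that Myod1 was above Cdh15 in 11 of 21 libraries and Cdh15 was above Myog in 20. Myod1 and Cdh15 were therefore not separated beyond the spread between mice. The lowest level of the higher gene exceeded the highest level of the lower gene for Mef2c over Mef2a, Mef2a over Myod1, Myog over Chodl and Pax7 over Megf10. The scale depends on the annotated length. With the length of the canonical transcript in place of all exons, Mef2c (4635 per kb) came before Myf6 (2608 per kb), and the other 8 kept their places.

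**Figure D1:**
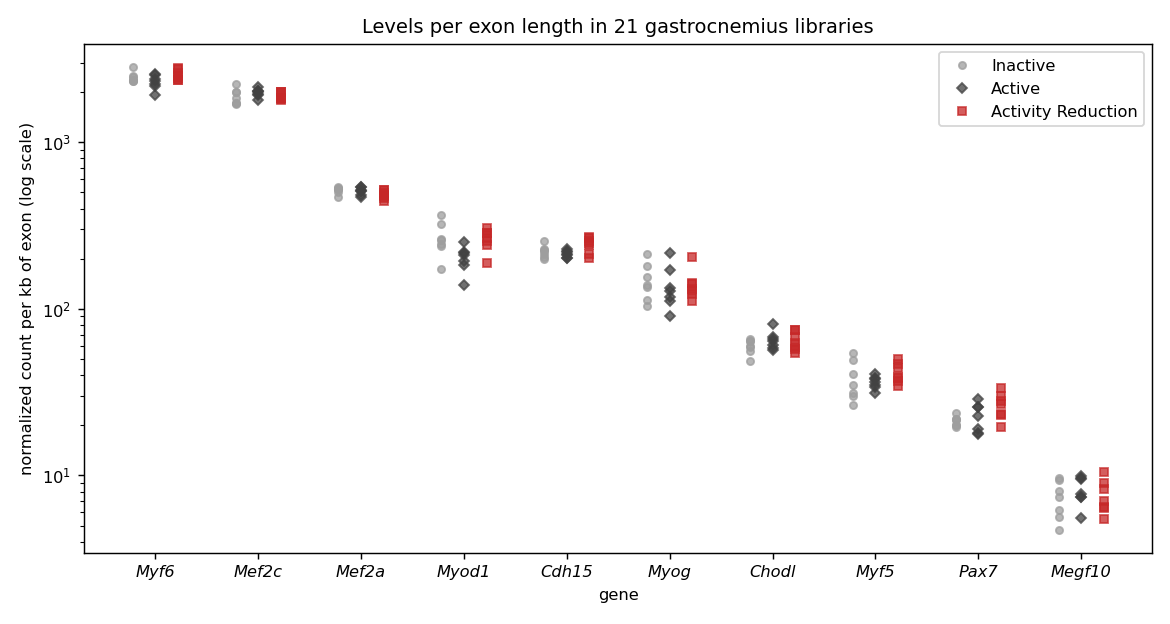
Normalized counts per kb of exon (log axis) of the 10 genes in the 21 libraries, with 1 point per library and marker shape and shade by group. Myf6 and Mef2c lie near 2000 per kb and Megf10 between 4.73 and 10.4 per kb, and the 3 groups overlap for every gene.

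The spread between mice differed between genes and, averaged over the groups, was above counting error for every gene. The coefficient of variation within groups, averaged over the 3 groups, was 26.0% for Myog, 22.6% for Megf10, 18.5% for Myod1, 16.5% for Myf5 and 14.6% for Pax7. It was 11.8% for Chodl, 8.05% for Cdh15, 7.97% for Myf6, 7.15% for Mef2c and 5.05% for Mef2a. Counting error alone would give 6.78% for Myog and 4.63% for Myod1, and 11.3% for Megf10, 11.1% for Myf5 and 8.52% for Pax7, which had between 42 and 187 counts per library. Pax7 varied by 6.59% among Inactive mice, below the 8.56% that counting error gives, and by 19.2% among Active and 18.0% among Activity Reduction mice. Myf5 had the other order, with 27.5% among Inactive, 8.84% among Active and 13.3% among Activity Reduction mice. These differences in spread were not tested.

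Differences between groups were tested for 16129 genes with edgeR's quasi-likelihood method in a single model of all libraries, and the 10 members were all among them. Differential expression was called at a Benjamini-Hochberg adjusted p-value under 0.05 with a log2 fold change over 0.25 in either direction. None of the 10 passed in any of the 3 comparisons, where 0%, 0.0124% and 0% of tested genes passed (Active against Inactive, Activity Reduction against Inactive and Activity Reduction against Active, in this order). DESeq2 on the 3 groups also called 0 of the 10 in each, although it gave no adjusted p-value to 7 of the 10 in the comparison of Activity Reduction with Inactive mice, with 0.525%, 0.786% and 0.816% called of the genes to which it gave an adjusted p-value. A test of any difference among the 3 groups with edgeR gave the 10 genes adjusted p-values of 0.309 or more. The 3 comparisons share mice, so their values are not independent of each other.

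Between Active and Inactive mice, 1 of the 10 genes, Myod1, had an unadjusted edgeR p-value under 0.05, against 10.4% of all tested genes and 4.51% with a lower mean in Active mice. The log2 fold change was above 0 for 4 members and below 0 for 6, with a median of -0.03, against 51.6% of tested genes above 0 and a median of 0.01. Myod1 encodes 1 of the 4 myogenic regulatory factors. Its normalized count lay between 330.0 and 692 in Inactive mice, with a median of 489, and between 264 and 479 in Active mice, with a median of 399.9. The groups overlapped, since 1 Active mouse was below every Inactive mouse and the lowest Inactive mouse was below 6 of the 7 Active mice. The means were 505 ± 117 in the Inactive and 384 ± 66.9 in the Active group (SD, n = 7 mice). The log2 fold change was -0.39 (standard error 0.139, 95% interval -0.68 to -0.10) with an adjusted p-value of 0.351 from edgeR. A two-sided exact permutation test of the log2 normalized counts gave p = 0.0373, unadjusted, as 1 of 30 such tests.

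Myod1 was also read within the division by liver transcripts. The single Inactive mouse with more of them had the lowest value of its group, 330.0, and the other 6 had a mean of 534 ± 96.2. The other groups had the reverse order. Active means were 394 with more (5 mice) and 357 with fewer liver transcripts (2 mice). Activity Reduction means were 562 with more (2 mice) and 469 with fewer (5 mice). Among the 13 libraries with fewer liver transcripts, Active and Inactive mice differed in mean log2 count by -0.56 (2 mice against 6), and within the other 8 it was 0.23 (5 mice against 1). With this division as a covariate in edgeR, the log2 fold change was -0.40 with an adjusted p-value of 0.528.

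Between the Activity Reduction and Active groups, 3 of the 10 genes had an unadjusted p-value under 0.05, Myod1, Cdh15 and Myf6, all with higher means in the Activity Reduction group, against 6.73% of tested genes in that direction and 13% in either. Of the members, 6 had a log2 fold change above 0, as did 49.8% of tested genes. Myod1 lay between 357 and 582 in Activity Reduction mice, with a median of 503. Of these mice, 5 were above every Active mouse, and the groups overlapped. The mean was 495 ± 73.8, close to that of the Inactive group, and the log2 fold change against the Active group was 0.37 (standard error 0.14, 95% interval 0.08 to 0.66, edgeR adjusted p-value 0.266). DESeq2 on only these 2 groups gave Myod1 an adjusted p-value of 0.0802. The two-sided exact permutation test gave p = 0.0163, unadjusted. In the libraries with fewer liver transcripts, Myod1 had a mean log2 difference of 0.38 (5 mice against 2), and in those with more it was 0.54 (2 mice against 5). Against the Inactive group, the log2 fold change of Myod1 was -0.02 (95% interval -0.31 to 0.27).

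Cdh15 encodes M-cadherin, which holds satellite cells to the fiber. Its normalized count lay between 1034 and 1319 in Inactive mice (median 1153), between 1049 and 1192 in Active mice (median 1109) and between 1043 and 1404 in Activity Reduction mice (median 1285). Of the Activity Reduction mice, 5 were above every Active mouse and 1 was below every Active mouse. The means were 1146 ± 94.7, 1111 ± 53.8 and 1258 ± 139 (SD, n = 7 mice). Cdh15 had log2 fold changes of 0.18 (standard error 0.0639) for Activity Reduction against Active and 0.14 (standard error 0.0637) for Activity Reduction against Inactive mice, with edgeR adjusted p-values of 0.232 and 0.661. Both differences were below the threshold of 0.25. Two-sided exact permutation tests gave unadjusted p-values of 0.0291 and 0.114. In the division by liver transcripts, the mean log2 differences within libraries with fewer were 0.15 and 0.10, and within those with more they were 0.25 and 0.18.

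Myf6 lay between 2721 and 3652 in Active mice (median 3295), between 3330.2 and 3930.5 in Activity Reduction mice (median 3522) and between 3295 and 4001 in Inactive mice (median 3370.4). Every Activity Reduction mouse was above the median of the Active group, and 3 were above every Active mouse. The log2 fold change between these groups was 0.13 (standard error 0.0585, edgeR adjusted p-value 0.341), and the two-sided exact permutation test gave p = 0.0594, unadjusted. Its neighbor Myf5, which is active in satellite cells, had means of 79.4 ± 21.8, 75.6 ± 6.68 and 86.2 ± 11.5 in the Inactive, Active and Activity Reduction groups. Myf5 had log2 fold changes of -0.07, 0.12 and 0.19 in the 3 comparisons, with edgeR adjusted p-values between 0.619 and 0.937.

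When Activity Reduction mice were set against Inactive mice, 3 of the 10 genes had an unadjusted p-value under 0.05, where 7.51% of tested genes did. Of the members, 7 had a log2 fold change above 0, as did 52.2% of tested genes. Pax7 and Cdh15 had higher means (4.06% of tested genes in that direction) and Mef2a had a lower mean (3.45% in that direction). The normalized count of Pax7 lay between 115 and 138 in Inactive mice (median 125), between 105 and 168 in Active mice (median 133) and between 115 and 197 in Activity Reduction mice (median 158). In the Activity Reduction group, 4 mice were above every Inactive mouse and 1 was below every Inactive mouse. The means were 124 ± 8.19, 132 ± 25.3 and 154 ± 27.9 (SD, n = 7 mice). The log2 fold change of Pax7 against the Inactive group was 0.32 (standard error 0.127, 95% interval 0.055 to 0.58, edgeR adjusted p-value 0.568). The two-sided exact permutation test gave p = 0.0181, unadjusted. Pax7 had a mean log2 difference of 0.27 within the 13 libraries with fewer liver transcripts (5 mice against 6), and within the other 8 it was 0.34 (2 mice against 1). Against the Active group the log2 fold change was 0.22 (95% interval -0.04 to 0.49).

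**Figure D2:**
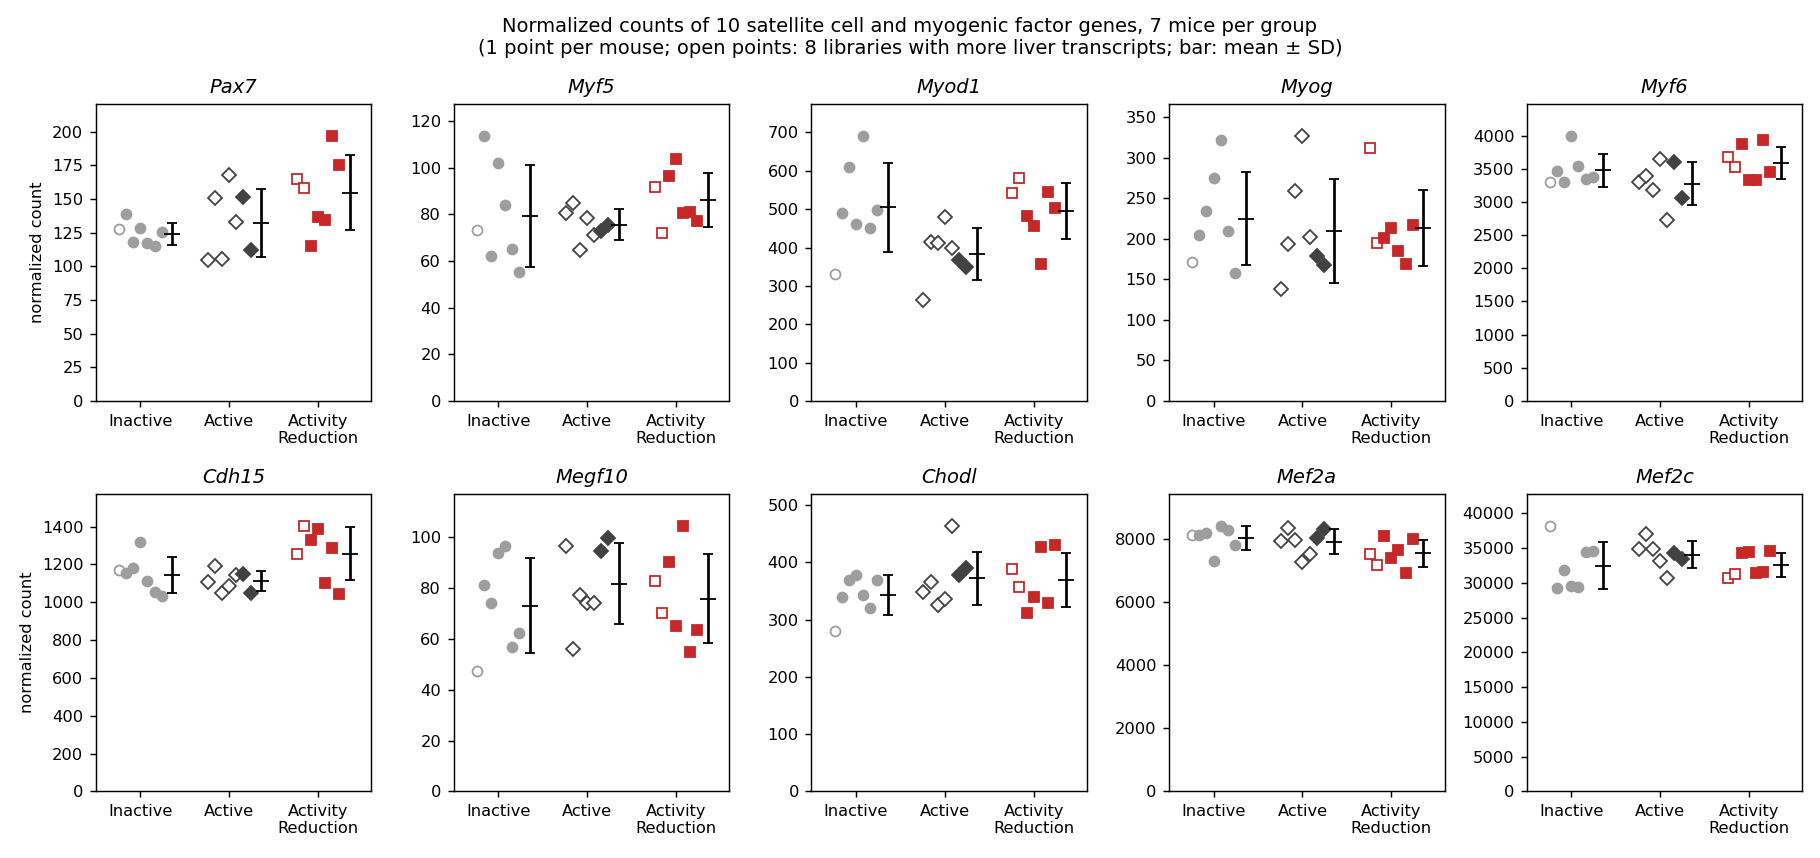
Normalized counts (axes from 0) of the 10 genes in each mouse by group, with the mean ± SD of 7 mice at the right of each group and open points for the 8 libraries with more liver transcripts. Myod1 was between 264 and 479 in Active mice, and 5 of 7 Activity Reduction mice lay above that range, but the groups overlapped for all 10 genes in all 3 comparisons.

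For the MEF2 factors the intervals were narrow. Mef2a had 8020.3 ± 367 normalized counts in the Inactive, 7902 ± 397 in the Active and 7528 ± 418 in the Activity Reduction group (SD, n = 7 mice). Its values lay between 7305 and 8401, between 7260.4 and 8344 and between 6914 and 8067 in the same order, and 2 Activity Reduction mice were below every mouse of the other groups. The log2 fold change of Mef2a between Activity Reduction and Inactive mice was -0.09 (standard error 0.0407, 95% interval -0.17 to -0.0029, edgeR adjusted p-value 0.661, two-sided exact permutation p = 0.0414, unadjusted), and all 3 intervals of this gene excluded a change of 0.25 in either direction. Mef2c, which endothelial cells also express, had 32455 ± 3396, 34025 ± 1946 and 32589 ± 1719 normalized counts. Its 3 log2 fold changes were between -0.06 and 0.07, and their intervals also excluded 0.25. The highest Mef2c value, 38178, was that of the Inactive mouse with more liver transcripts. Between Active and Inactive mice, the mean log2 difference of Mef2c was 0.11 in libraries with fewer liver transcripts (2 mice against 6). In those with more it was -0.17 (5 mice against 1). Endothelial markers summed to between 154 and 195 CPM in the Inactive, 165 and 224 CPM in the Active and 143 and 172 CPM in the Activity Reduction group, and their part in the Mef2c counts was not tested.

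Myog, which drives terminal differentiation, had 225 ± 57.8 normalized counts in the Inactive, 209.8 ± 63.8 in the Active and 213 ± 46.9 in the Activity Reduction group (SD, n = 7 mice). Values lay between 158 and 322.1 (median 209), between 138 and 327 (median 194) and between 169 and 312.7 (median 201), so the groups covered nearly the same range. Its log2 fold changes were -0.09, -0.07 and 0.02, and their 95% intervals reached from -0.46 to 0.39. A change in Myog of the size seen for Myod1 was thus within these intervals. Megf10 had 73.1 ± 18.7, 81.7 ± 15.9 and 75.8 ± 17.4 normalized counts, with intervals that reached from -0.48 to 0.54. Between Activity Reduction and Active mice, its mean log2 difference was -0.40 in libraries with fewer liver transcripts (5 mice against 2) and 0.03 in those with more (2 mice against 5). Chodl had 343 ± 34.7, 372 ± 46.3 and 369 ± 47.4, with log2 fold changes of 0.13, 0.11 and -0.02. The lowest values of both Megf10 (47.3) and Chodl (279) were those of the Inactive mouse with more liver transcripts.

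**Figure D3:**
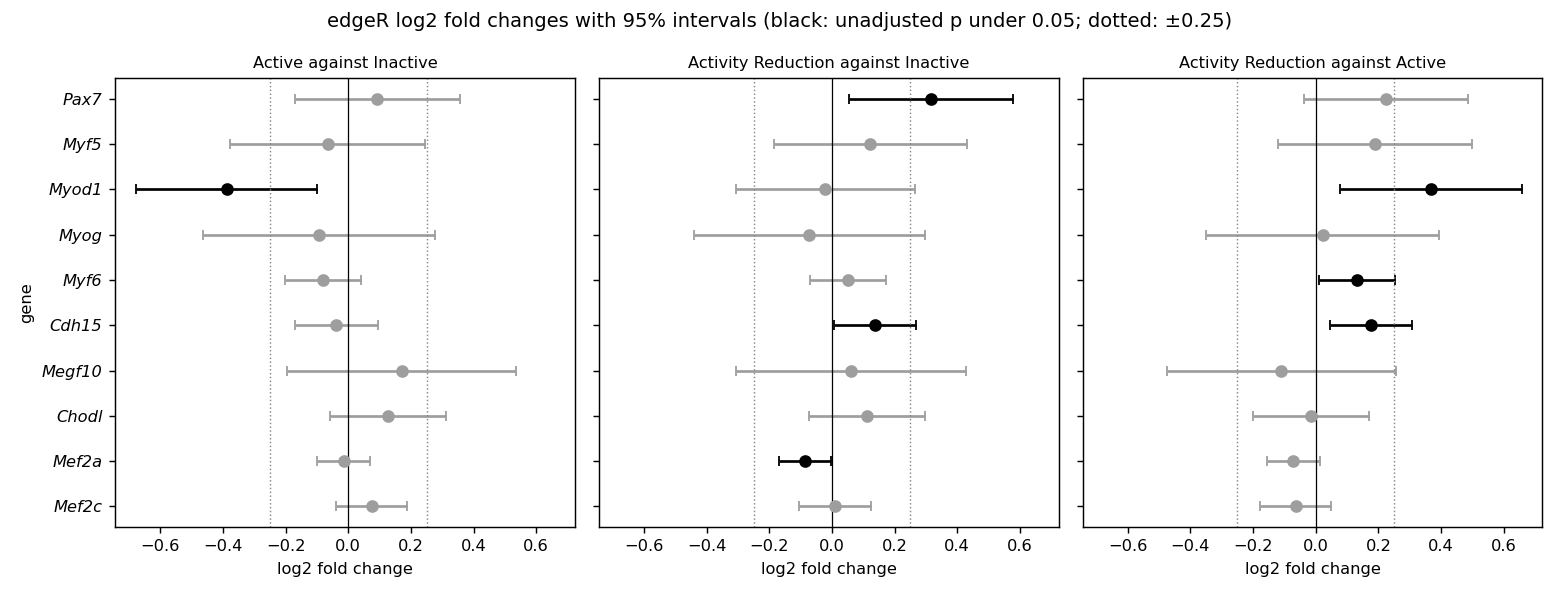
Log2 fold changes of the 10 genes in the 3 comparisons from edgeR, with 95% intervals, dotted lines at 0.25 in either direction and black symbols for unadjusted p-values under 0.05. The intervals of Mef2a and Mef2c lie inside the dotted lines, those of Myog and Megf10 extend past 0.25 on at least 1 side in every comparison, and the only intervals that lie wholly on 1 side of 0 are the 7 black ones.

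Normalized counts did not overlap between groups for 0 of the 10 genes in any comparison, as compared with 0.254%, 0.118% and 0.291% of tested genes. The smallest two-sided p-value that the exact permutation test of 7 mice against 7 allows is 0.000583.

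Other genes of the myogenic pathway were grouped in 7 lists, and 0 of their tested genes passed the thresholds in any comparison with edgeR. Of 20 genes of the satellite cell niche and of quiescence, such as Notch receptors and their targets, 19 were tested. Between Active and Inactive mice 14 of them had a log2 fold change above 0, with a median of 0.09, and 4 had an unadjusted p-value under 0.05 and a higher mean (5.9% of all tested genes in that direction). Between Activity Reduction and Active mice 14 were below 0, with a median of -0.06, and 4 had an unadjusted p-value under 0.05 and a lower mean (6.27% of all tested genes). The smallest p-value in both belonged to Cd34, a surface protein of quiescent satellite cells that endothelial cells and fibro-adipogenic progenitors also carry. Cd34 had 756 ± 79.5 normalized counts in the Inactive, 929.8 ± 162 in the Active and 739 ± 78.2 in the Activity Reduction group, with edgeR adjusted p-values of 0.29 and 0.152. Markers of fibro-adipogenic progenitors summed to between 142 and 230.1 CPM in the Inactive, 195 and 307.5 CPM in the Active and 151 and 216 CPM in the Activity Reduction group, and all 5 had a log2 fold change above 0 between Active and Inactive mice and below 0 between Activity Reduction and Active mice. The same held for all 5 endothelial markers, and the part of these cells in Cd34 and in this list was not tested. Between Activity Reduction and Inactive mice the smallest p-value in this list was that of the Notch target Hes1 (375 ± 43.2 against 308.1 ± 35.99 normalized counts, edgeR adjusted p-value 0.511).

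Genes of cell fusion and of regenerating fibers were also mostly above 0 for Active against Inactive mice (9 of 12 tested, median log2 fold change 0.14) and below 0 for Activity Reduction against Active mice (10 of 12, median -0.12). At an unadjusted p-value under 0.05, 4 had higher and 1 had a lower mean in the former, and 2 had higher and 5 had lower means in the latter. Of all tested genes, 51.6% were above 0 in the former and 49.8% in the latter, with 5.9% higher and 4.51% lower at that p-value in the former and 6.73% higher and 6.27% lower in the latter. Myh8, the perinatal myosin heavy chain, had the smallest p-value in the former, with 1705 ± 221 normalized counts in the Active and 1465 ± 84.4 in the Inactive group (edgeR adjusted p-value 0.28). Jam3, an adhesion protein, had the smallest in the latter, with 382 ± 31.9 normalized counts in the Activity Reduction and 469 ± 69.6 in the Active group (edgeR adjusted p-value 0.129). Between Activity Reduction and Inactive mice it was Myl4, an embryonic light chain, with 525 ± 89.4 against 447 ± 60.2 normalized counts (edgeR adjusted p-value 0.669). The fusion genes Mymk and Mymx had at most 28 and 6 counts in any library and were not tested. All 5 endothelial and all 5 fibro-adipogenic progenitor markers were also above 0 in the former and below 0 in the latter. The part of those cells in this list was not tested. The comparisons of both paragraphs share the Active mice.

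All 12 E proteins and inhibitors of myogenic factors were tested. Of these, 10 were above 0 between Active and Inactive mice, 10 between Activity Reduction and Inactive mice and 6 between Activity Reduction and Active mice. These were counted in each comparison separately, and the comparisons with the Inactive group share its mice. Of all tested genes, 51.6%, 52.2% and 49.8% were above 0 in the 3 comparisons. Only Tcf4 in the last comparison had an unadjusted p-value under 0.05, as 13% of all tested genes did there (2279 ± 168 against 2497 ± 108 normalized counts, edgeR adjusted p-value 0.192), and Tcf12 and Tcf4 had the smallest p-values in the others, with adjusted p-values of 0.607 and 0.795. In another list, Six2 had 631 ± 86.1, 603 ± 161 and 859 ± 182 normalized counts in the Inactive, Active and Activity Reduction groups (edgeR adjusted p-values 0.511 against the Inactive and 0.187 against the Active group). Eya2, with 40.97 ± 8.81 in the Active and 29.2 ± 8.23 in the Inactive group, had the smallest p-value between these groups (edgeR adjusted p-value 0.437).

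Mef2d and 4 class IIa histone deacetylases, which repress MEF2 factors, were tested, whereas Mef2b had at most 4 counts. Of these 5 genes, 3 were above 0 between Active and Inactive, 2 between Activity Reduction and Inactive and 3 between Activity Reduction and Active mice, and only Mef2d in the second of these had an unadjusted p-value under 0.05 (7.51% of all tested genes). Mef2d had 9744 ± 552, 9969.5 ± 316.3 and 10535 ± 738 normalized counts in the Inactive, Active and Activity Reduction groups (edgeR adjusted p-values 0.516 and 0.459 for the Activity Reduction group). Hdac4 had 2064 ± 366 in the Inactive and 1749 ± 175 in the Active group (edgeR adjusted p-value 0.536). Of 7 tested genes that respond to loss of the nerve, 3 were above 0 in each comparison. At an unadjusted p-value under 0.05, 1 had a lower mean in Active than in Inactive mice (4.51% of all tested genes), and 1 had a higher and 1 a lower mean in Activity Reduction mice in both of their comparisons (4.06% and 3.45% against Inactive, 6.73% and 6.27% against Active mice). In this list Chrnd, a subunit of the acetylcholine receptor, had 146 ± 17.2, 141 ± 21.7 and 111 ± 15.2 normalized counts, with a log2 fold change of -0.39 between Activity Reduction and Inactive mice (edgeR adjusted p-value 0.394). Gadd45a had 1086 ± 116 in the Inactive and 886 ± 202 in the Active group (edgeR adjusted p-value 0.401), and Chrng had at most 9 counts. None of the 6 tested proliferation genes had an unadjusted p-value under 0.05 in any comparison, and Mcm2 and Pcna came closest with edgeR adjusted p-values of 0.559 to 0.957. Pax3, a relative of Pax7, had at most 10 counts in any library and was not tested.

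Members were compared with each other over the 21 libraries, on log2 normalized counts with each group mean removed. None of the 45 pairs passed after Benjamini-Hochberg adjustment of permutation p-values. The smallest p-value was that of Myod1 and Myog, with Pearson r = 0.64 (permutation p = 0.00427, adjusted 0.187) and Spearman rho = 0.59 (permutation p = 0.00967, adjusted 0.327). Without the 2 mice farthest from the median of Myod1, r was 0.52. It was 0.39 within the 13 libraries with fewer liver transcripts and 0.74 within the 8 with more. Megf10 and Mef2c had r = -0.61 (permutation p = 0.00833, adjusted 0.187) and rho = -0.58 (permutation p = 0.0145, adjusted 0.327), with r = -0.50 without the 2 farthest mice and r = -0.61 and -0.32 within the 13 and the 8 libraries. Of the 45 values of r, 23 were positive, with a median of 0.05. Pax7 had r = 0.05 with Myf5 and r = 0.06 with Cdh15, both also markers of satellite cells. Counting error alone would give a variation of 8.52% for Pax7 and 11.1% for Myf5. Its part in these low values of r was not tested.

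**Figure D4:**
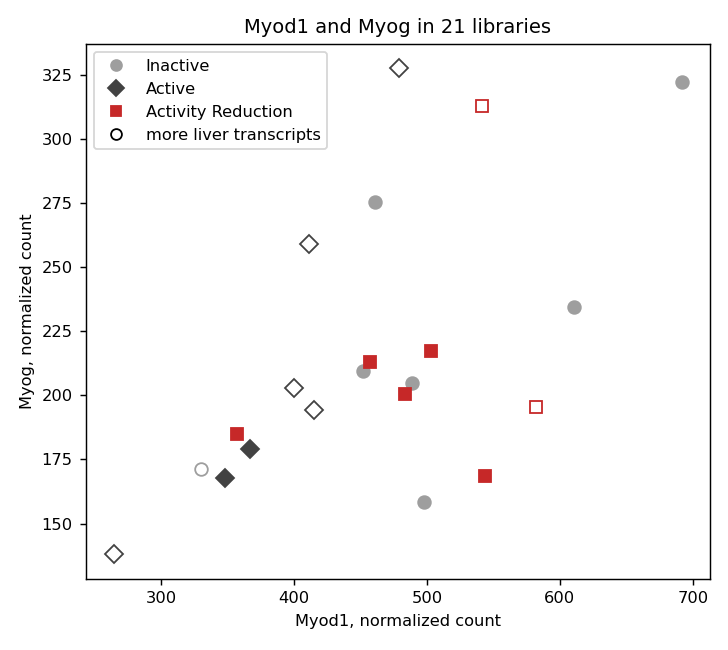
Normalized counts of Myod1 and Myog in the 21 libraries, with marker shape by group and open symbols for the 8 libraries with more liver transcripts. After removal of group means, r was 0.64, which did not pass adjustment over 45 pairs (permutation test, adjusted p = 0.187). The plotted counts keep the group means. The lowest Myod1 count, 264, was that of an Active mouse with a Myog count of 138. The highest, 692, was that of an Inactive mouse with a Myog count of 322.1.

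The genes whose counts were most alike over the 21 libraries, with group means removed, were looked up for each member among 12361 other genes with a mean normalized count of at least 50. The points share 1 tissue and differ in depth, and each gene was picked for its high r, so these values are a description with no test. Pax7 was most like Rab11b (r = 0.84), Exosc5 (0.80) and Cope (0.79). Myod1 was most like Med20 (0.76), Krtcap2 (0.75) and Mvb12a (0.74), and Myf5 was most like Rad9a (0.80), Ubap1l (0.79) and Snrpe (0.73). Myf6 was most like Mitd1 (0.74), Usp28 (0.70) and 2810002D19Rik (0.69), and Myog was most like LOC118567815 (0.73), Gm46085 (0.71) and Gm41717 (0.71). Among the surface proteins, Cdh15 was most like Pwwp2b (0.82), Prdm10 (0.77) and Marchf4 (0.76), Megf10 was most like mt-Rnr2 (0.78), Syp (0.76) and Gm5532 (0.76), and Chodl was most like Tango2 (0.76), Mindy4 (0.75) and Ly6c1 (0.74). Mef2a was most like Rps6-ps4 (0.81), Vps13a (0.81) and Ints13 (0.79), and Mef2c was most like Scaper (0.79), Msrb3 (0.74) and Polh (0.73).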

How the data were processed

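Paired-end reads of poly(A)-selected RNA were trimmed by the authors with fastp, aligned to GRCm39 with STAR and counted on genes with featureCounts. Their versions, the annotation and the strand setting are not given in the sources used here. The deposited values are raw counts for 40853 genes in 21 libraries, 1 per mouse. A further table has a name that promises normalized values, but all 857913 of its entries equal the raw ones, so it was left out.

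Counts were tested in edgeR 4.0.16 (R 4.3.3) with filterByExpr, TMM and robust quasi-likelihood F tests of the 3 groups, with Benjamini-Hochberg adjustment over 16129 genes. DESeq2 1.42.0 gave the size factors for normalized counts and was run as an alternative. Single genes were also compared by two-sided exact permutation tests of log2(normalized count + 0.5), and correlations by 100000 shuffles within groups. Alternatives were other size factors, no filter, fits of 2 groups, the liver division as a covariate, a replicate block and each library left out. Scripts were tested on simulated data. The depth, 38482455 to 59785132 counts per library, makes counting error 0.549% for Mef2c and 11.3% for Megf10.

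Exon lengths and positions came from GENCODE M39. The members, gene lists and liver division were chosen with earlier results of these data known. Named genes were all members, the gene with the smallest p-value of each list in each comparison, and the 3 genes most like each member. Replicate numbers were given within each group, so the mice were not treated as paired. The counts over the list that holds Six2 and Eya2 are not reported here.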

Additional observations from a re-analysis of the deposited data

Results flagged for a closer look

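In groups of 7 mice, the gap between the highest or lowest mouse and its nearest neighbor was compared with the range of the group by Dixon's criterion, for 10 genes in 3 groups, and chance flags about 1 in 20 groups. The Myog count of 312.7 normalized counts in Activity Reduction replicate 1 stood apart from the other 6 mice of its group, of which the next was at 217, a gap of 0.663 of the range. The Myf6 count of 4001 in Inactive replicate 4 stood apart from the next mouse at 3545, a gap of 0.646 of the range. Both groups without these mice still overlapped the other groups.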

How the results depend on the processing

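The count of members past the thresholds was 0 in every comparison under all alternatives, and of 870 member log2 fold changes over the alternatives 843 kept their sign and 0 passed and the smallest adjusted p-value was 0.0802. Counts over all genes moved with the tool. DESeq2 on the 3 groups gave 63 genes for Active against Inactive, 20 for Activity Reduction against Inactive, 116 for Activity Reduction against Active and 251 for any difference, and DESeq2 on the 2 groups compared gave 76, 43 and 139 in the first 3. Without the filter, edgeR gave 1 gene for Activity Reduction against Inactive, 9 against Active and 8 for any difference, and edgeR on the 2 groups gave 5 for Active against Inactive. Both counts for any difference used the adjusted p-value alone, without the fold change threshold of the other counts. With the replicate block, Activity Reduction against Inactive had 4 genes and Myod1 there had a log2 fold change of 0.0041, and the block moved no other count by more than 1.5 times. Same-numbered mice deviated together (r over 0.1) in 10 of 21 pairs, among them the 3 pairs of replicate 1 (0.529 to 0.680), all with more liver transcripts, and the 3 of replicate 7 (0.101 to 0.426). These correlations are no test of pairing, and replicate numbers were given within each group, so the mice were not treated as paired. With the liver division as a covariate, Mef2a in Active against Inactive was 0.0045. With only the 13 libraries with fewer liver transcripts, an alternative chosen after seeing the data, it was 0.033, Megf10 in Activity Reduction against Inactive was -0.030, and 0 genes passed there. The cause of these changes was not tested. With each library left out in turn, counts over all genes ranged from 0 to 1 for Active against Inactive, from 0 to 6 for Activity Reduction against Inactive and from 0 to 24 for Activity Reduction against Active, the last without Activity Reduction replicate 7. The log2 fold changes that changed sign ranged, for Active against Inactive, from -0.14 to 0.041 for Myf5, from -0.24 to 0.013 for Myog and from -0.039 to 0.0021 for Mef2a. For Activity Reduction against Inactive they ranged from -0.10 to 0.070 for Myod1, from -0.20 to 0.035 for Myog, from -0.033 to 0.14 for Megf10 and from -0.021 to 0.055 for Mef2c. For Activity Reduction against Active they ranged from -0.10 to 0.16 for Myog and from -0.062 to 0.040 for Chodl. For Pax7, Myf5 and Megf10, counts of 42 to 187 per library limit what can be seen.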
